A study of Mus musculus with 4 samples.

Results

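The immediate early genes described here are Fos, Fosb, Jun, Junb, Atf3, Egr1, Ier2, Ier3, Ier5 and Dusp1, 10 of the 27962 gene labels on a whole mouse genome array with 2 colours. A member was any non-control probe that the scanner files assign to 1 of these gene names, and the brightest probe stood for its gene. Male C57BL/6J mice, given as 13 weeks old, were kept on 1 of 2 diets for 4 weeks, and total RNA was taken from liver and from spleen. The NP diet was a purified diet with 1.2% nucleoprotein added and held 0.5% nucleic acids, whereas the low-NP diet was the purified diet alone with 0.03% nucleic acids. RNA of each diet and tissue was pooled, which gave 4 pools (NP liver, low-NP liver, NP spleen and low-NP spleen), and no label states how many mice made up a pool. Each tissue had 2 arrays that set the NP pool against the low-NP pool: array 1 held NP in Cy5 and array 2 held NP in Cy3. In the labels the numbers 1 and 2 of the pooled samples go with the dye orientation, and it is unknown from them if the arrays of a tissue shared the same pools. The arrays of a tissue were counted as 1 replicate, and differences are given without a test or p-value. The sign ± after a log2 ratio is the distance of each array from the mean of the 2 arrays. It covers dye and array error, and a difference between pools only if each array had its own.

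Immediate early genes are transcribed within minutes of a stimulus, without new protein synthesis, when signalling kinases such as the MAP kinases activate transcription factors already bound at their promoters, such as SRF with its partners and CREB. Many of their products are themselves transcription factors: Fos and Jun proteins pair to form AP-1, and Egr1 is a zinc finger factor. Others act as brakes, such as the phosphatase Dusp1. In liver they are known as the first transcriptional response to partial hepatectomy and to injury, and in spleen as markers of lymphocyte activation. Their RNAs are short-lived, and handling of tissue is known to raise them.

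Of the 10 members, 8 had an entry in the RefSeq promoter table (GRCm38.p6). The bases upstream of the annotated start are printed for Ier5, the member with the diet difference described below, and for Fos, Junb and Dusp1 as members without it. Each runs 5′ to 3′ over the 250 bases before the start, on the strand of the gene. Capitals mark the letters TGACG or CGTCA (the core of the CREB and ATF site, read on either strand), CCAAT or ATTGG (the CCAAT box, read on either strand) and TATAAA (the TATA box, read on the gene's strand).
Ier5, chr1:155099637-155099886, minus strand: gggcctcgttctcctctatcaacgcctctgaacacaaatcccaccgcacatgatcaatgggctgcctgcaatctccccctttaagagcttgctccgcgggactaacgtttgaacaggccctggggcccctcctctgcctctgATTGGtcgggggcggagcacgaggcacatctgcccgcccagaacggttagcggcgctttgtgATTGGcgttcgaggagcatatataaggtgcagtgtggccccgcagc
Fos, chr12:85473640-85473889, plus strand: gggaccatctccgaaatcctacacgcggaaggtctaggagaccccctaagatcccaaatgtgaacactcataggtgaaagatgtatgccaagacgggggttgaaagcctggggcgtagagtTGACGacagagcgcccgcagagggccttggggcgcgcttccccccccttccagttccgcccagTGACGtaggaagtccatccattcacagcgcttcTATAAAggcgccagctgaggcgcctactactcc
Junb, chr8:84978749-84978998, minus strand: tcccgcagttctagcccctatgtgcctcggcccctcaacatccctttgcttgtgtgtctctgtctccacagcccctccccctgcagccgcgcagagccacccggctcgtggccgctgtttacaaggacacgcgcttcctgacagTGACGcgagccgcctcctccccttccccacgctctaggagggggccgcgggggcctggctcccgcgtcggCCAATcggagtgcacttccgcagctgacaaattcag
Dusp1, chr17:26508473-26508722, minus strand: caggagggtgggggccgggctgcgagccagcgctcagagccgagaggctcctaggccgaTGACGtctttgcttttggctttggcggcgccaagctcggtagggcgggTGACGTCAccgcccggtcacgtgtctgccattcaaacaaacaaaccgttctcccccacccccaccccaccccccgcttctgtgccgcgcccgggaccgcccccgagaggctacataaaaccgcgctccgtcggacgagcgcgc

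The TGACG core was found in 5 of the 8 member promoters (Fos, Fosb, Junb, Dusp1 and Atf3), and in 17.8% of all 32851 promoters of the table over the same length. Fos held it at 129 and 66 bases before the start, Junb at 106, and Dusp1 at 191 and 143, the last of which overlaps a copy on the opposite strand at 140. Ier5 held no TGACG in this window. It held 2 CCAAT boxes on the opposite strand, at 108 and 46 bases before the start. CCAAT stood in 4 of the 8 (Jun, Junb, Ier3 and Ier5), against 33.8% of all promoters. The Egr1 motif GCGNGGGCG was in Fosb alone of the 8 (4.7% of all promoters), the heat shock half-site pair GAANNTTC in Jun alone (6.69%), and TATAAA in Fos alone (7.59%). The AP-1 motif TGANTCA and the CArG box bound by SRF were in none of the 8, against 6.75% and 1.47% of all promoters. These are matches of letters on both strands, except TATAAA, and no binding was measured. Only the exact letters TATAAA were searched, so similar letters, such as tatataag in Ier5, are unmarked. A promoter without TATAAA is thus not shown to lack a TATA box. The same limit holds for the other motifs: letters close to TGANTCA, such as tgacatca in Jun, were not counted. Bases further upstream than this window were not searched. The promoters are therefore not shown to lack AP-1 or SRF sites.

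The tissue labels were read against marker genes first, because the low-NP pools stood apart. The hepatocyte gene Alb1, which encodes albumin, had normalized log2 levels of 17.86 in NP liver, 18.05 in low-NP liver, 13.99 in NP spleen and 18.86 in low-NP spleen. The lipoprotein gene Apoa1 had normalized log2 levels of 16.9 in NP liver, 17.1 in low-NP liver, 10.2 in NP spleen and 15.5 in low-NP spleen. All 7 measured hepatocyte markers were lower in NP spleen than in low-NP spleen, at a summed log2 level of 13.3 to 15.3 in NP spleen and 19.8 to 20.4 in low-NP spleen. The B cell receptor gene Cd79b had levels of 9.63 in NP liver, 14.2 in low-NP liver, 16.6 in NP spleen and 16.4 in low-NP spleen. The T cell receptor gene Cd3d followed, with levels of 8.97 in NP liver, 11.5 in low-NP liver and 13.8 in both spleen pools. In spleen all 8 exocrine pancreas markers were also called lower with NP (median -2.13). Of 5 erythroid markers, 2 were called higher (Hemgn 0.74 ± 0.05, Ank1 0.67 ± 0.03), and no B cell, T cell, macrophage, neutrophil or endothelial marker was called. All 4 neutrophil markers still lay above 0 in spleen, with a median of 0.61, against 0.43 for the erythroid markers. The low-NP spleen pool thus held hepatocyte transcripts at levels of the kind seen in liver, and the low-NP liver pool held more lymphocyte transcripts than NP liver. Whether RNA or tissue of the other organ entered the low-NP pools was not tested, and this touches the meaning of each diet ratio, that of Ier5 included. Every diet ratio below contains a low-NP pool, so none can be given without them. The tissue comparison between the NP pools sets only NP levels against each other. Each NP level was still normalized together with the low-NP channel of its array, so that comparison is not free of the low-NP pools. On spleen array 1 the negative-control spots had median signals of 307 in Cy5 and 156 in Cy3, against 62.7 to 74.0 on the other arrays, and 93.1% to 94.7% of probes were flagged well above background there, against 58.6% to 67.5%.

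All 10 members were measured in both tissues, which required, on each array of the tissue, a flag of well above background in 1 or both channels. Fosb missed that mark in 1 of its 8 channels, low-NP liver on array 1, and the other members passed in all 8. No member probe was saturated. A gene counted as called where each array of the tissue reached 1.5-fold, with 1 common sign.

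**Figure D1:**
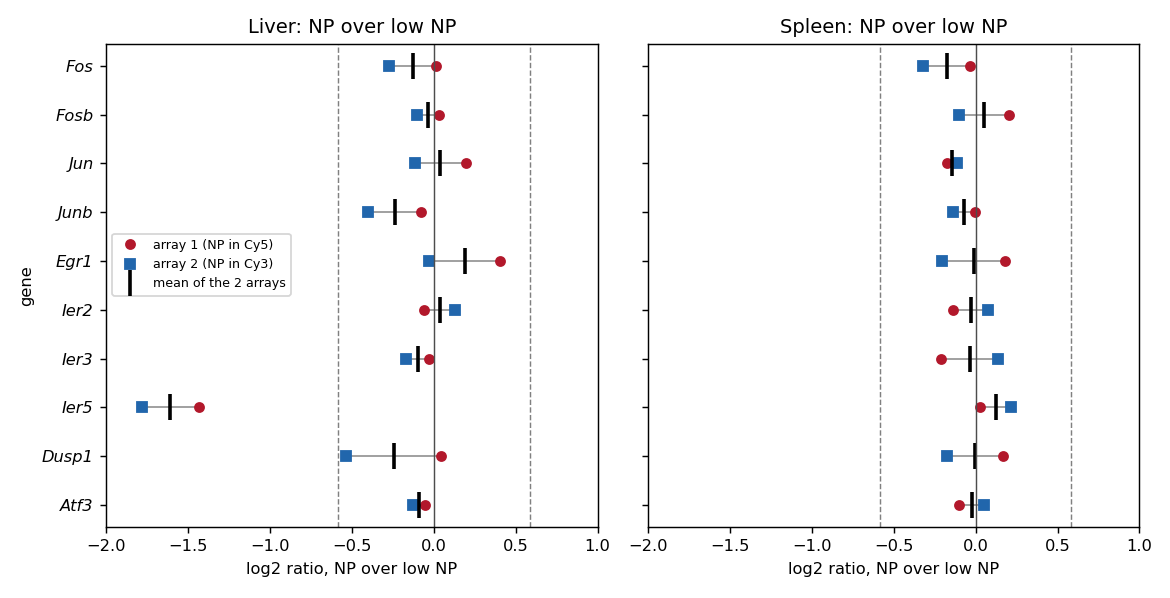
Log2 ratio of NP over low NP (x axis) for each member (y axis) in liver (left) and spleen (right), with array 1 as red circles, array 2 as blue squares, their mean as a black bar and dashed lines at 1.5-fold. Ier5 in liver lies at -1.44 and -1.78, beyond the dashed line on both arrays, and no other member passes that line on both arrays in either tissue.

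One of the 10 members, Ier5, was called lower in NP liver and none was called higher. Of 17100 measured genes in liver, 3.63% were called lower and 0.0702% higher. In spleen none of the 10 was called in either direction, where 6.33% of 18567 measured genes were called lower and 0.0431% higher. The median log2 ratio of the members was -0.09 in liver and -0.03 in spleen, and the medians over all measured genes were 0.00079 and -0.016. In bulk tissue, fewer cells that carry a transcript and less of it per cell cannot be told apart, and neither can be told here from RNA of another tissue in a pool.

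Ier5 encodes a nuclear protein that, in human cells, binds HSF1 and the phosphatase PP2A and is induced by DNA damage and heat. Its probe lies at chr1:155059487-155059546 on the minus strand of mm7, the build of the array files. The normalized log2 level of Ier5 was 11.57 and 11.51 in NP liver (arrays 1 and 2), against 13.01 and 13.29 in low-NP liver. Both NP values lay below both low-NP values. The uncorrected signals were 3443 in Cy5 and 1732 in Cy3 for NP liver, against 4308 in Cy3 and 15434 in Cy5 for low-NP liver. Within a dye the NP signal was thus the smaller one in both Cy3 and Cy5. The log2 ratio of NP over low NP was -1.61 ± 0.17, so Ier5 was 3.05-fold lower in NP liver. Of all measured liver genes, 1.55% had a lower mean ratio than Ier5. The ratio held its call under each of 8 settings of background correction, normalization, probe choice and filter, the main one included, between -1.70 and -1.43. Probe choice and filter could not move it, because Ier5 has 1 probe, well above background in all 8 channels.

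In spleen the Ier5 level was 15.60 and 15.71 in the NP pool, against 15.57 and 15.49 in the low-NP pool. Its log2 ratio there was 0.12 ± 0.10, below the threshold on both arrays, and it became -0.18 when arrays were centred on their medians in place of loess. Spleen was the tissue with more Ier5 RNA on both diets. Compared within a dye, the level in liver was 17.3-fold below that in spleen between the NP pools, a log2 difference of -4.11 ± 0.09. Between the low-NP pools it was 5.22-fold below, a log2 difference of -2.38 ± 0.18. From the scanner software's processed signals these differences were smaller, at -3.35 and -1.52 on the log2 scale, still past 2-fold in both dyes. The 4 pools ordered as NP spleen, low-NP spleen, low-NP liver and NP liver, and the 2 spleen pools were the neighbours within 1.5-fold of each other. The narrower tissue gap on the low-NP diet is the liver ratio seen from the other side and is no separate observation.

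The genes whose 4 pool levels, each centred on the gene's own mean, lay nearest to those of Ier5 among 10371 genes were Grap and Slc1a5. Their root mean square distances were 0.0141 and 0.0269 on the log2 scale. Grap had log2 ratios of -1.64 ± 0.08 in liver and 0.12 ± 0.24 in spleen, and Slc1a5 had -1.62 ± 0.41 and 0.20 ± 0.02. Grap is an adaptor protein of lymphocyte receptor signalling, and Slc1a5 is a glutamine transporter.

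Markers of several immune cell types moved with Ier5 in liver. Of the B cell markers 6 of 8 were called lower in NP liver, with a summed log2 level of 11.2 to 12.0 in NP liver and 15.1 to 15.4 in low-NP liver. The other pair, Cd79a and Blk, was not well above background in NP liver on either array. Of the T cell markers 6 of 8 were called lower, at 11.2 to 11.9 in NP liver and 13.5 to 14.1 in low-NP liver. The exceptions, Cd3e (-0.08 ± 0.09) and Cd4 (-0.06 ± 0.07), were well above background in both liver pools and are named after their values were seen. Their probes barely told the tissues apart, with Cd3e at 8.81 in NP liver and 8.63 in NP spleen. Cd4 stood at 7.94 and 8.30 in these pools. Of the red pulp macrophage markers 3 of 4 were called lower, at 12.4 to 12.6 in NP liver and 14.3 to 14.4 in low-NP liver. Vcam1, Hmox1 and Cd68 of that list are also made by other liver cells, and Spic, its most restricted member, had a log2 ratio of -2.08 ± 0.34. One of 4 neutrophil markers was called lower (S100a9, -1.94 ± 0.21), and all 8 exocrine pancreas markers were, with a median of -1.03. None of 7 hepatocyte, 4 endothelial or 3 measured erythroid markers was called in liver. The hepatocyte markers differed between the liver arrays, with medians of 0.64 on array 1 and -0.51 on array 2. Their lack of calls therefore does not show a steady level. The part of these cell types in the Ier5 ratio was not tested.

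Ier5 was also the only member at least 2-fold higher in NP spleen than in NP liver in both dyes. Genes of that kind held most of the liver calls: 606 of 2767 (21.9%) were called lower in NP liver, against 15 of the 14333 others (0.105%). The NP liver channels enter both measures, so this is a description of where Ier5 sits and not a second line of data.

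**Figure D2:**
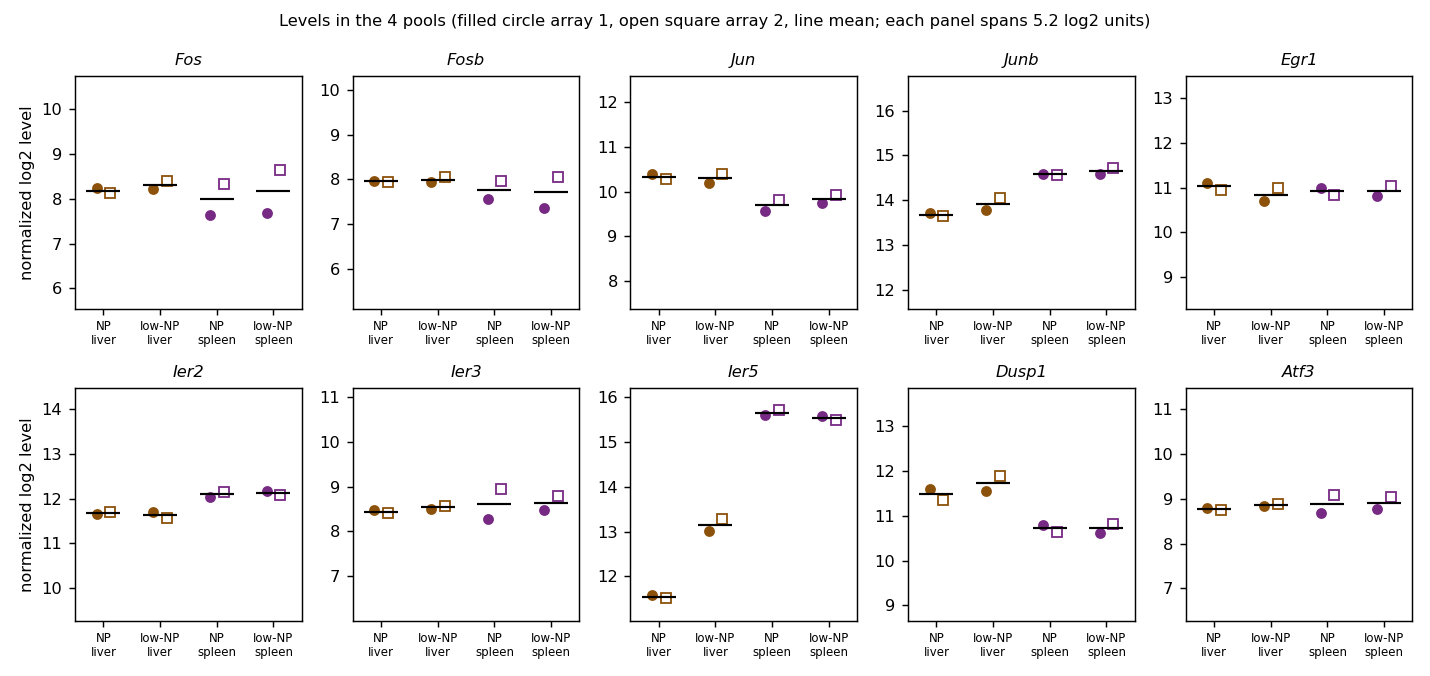
Normalized log2 level (y axis, arbitrary intensity units, each panel spanning the same range) of each member in the 4 pools, with array 1 as filled circles, array 2 as open squares and a line at the mean. Ier5 separates into 3 heights, with NP liver at 11.51 to 11.57, low-NP liver at 13.01 to 13.29 and the spleen pools at 15.49 to 15.71, while the NP and low-NP levels of the other members lie close together within a tissue.

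Among the members, no AP-1 gene (Fos, Fosb, Jun, Junb or Atf3) reached 1.5-fold on both arrays in either tissue, although some had 1 sign on both arrays. Fos, the inducible dimer partner of Jun, had log2 ratios of 0.02 and -0.27 in liver and -0.04 and -0.32 in spleen. Its means were -0.13 ± 0.14 in liver and -0.18 ± 0.14 in spleen, so array 1 lay near 0 in both tissues and array 2 carried the negative value. Fosb, a close relative of Fos, had means of -0.04 ± 0.07 in liver and 0.05 ± 0.15 in spleen, with arrays on both sides of 0 in each tissue. Both Fos and Fosb were dim: the uncorrected Fos signal was 157 and 96.1 in NP liver, against 98.5 and 200 in low-NP liver, where negative controls lay between 64.2 and 74.0. The larger Fos signals of 871 in NP spleen and 356 in low-NP spleen on array 1 belong to the array with raised negative controls.

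Jun, the partner that can also dimerize with itself, had log2 ratios of 0.19 and -0.11 in liver, a mean of 0.04 ± 0.15. In spleen it was below 0 on both arrays, at -0.18 and -0.11, a mean of -0.14 ± 0.03 that stayed well short of 1.5-fold. Junb, a Jun relative that can restrain Jun activity, was bright in every pool. Its ratios were -0.08 and -0.40 in liver (mean -0.24 ± 0.16) and -0.0048 and -0.14 in spleen (mean -0.07 ± 0.07). A second Junb probe, which overlaps the first on the genome, read 0.38 and -0.58 in liver and 0.15 and -0.37 in spleen. That probe thus changed sign with the dye in both tissues. Atf3, a stress-induced ATF protein that pairs with Jun proteins, had means of -0.09 ± 0.04 in liver and -0.025 ± 0.08 in spleen.

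The probes of Fos and Jun were printed at 10 spots each, which shows how much of the spread lay within an array. The 10 Fos spots of liver array 2 ranged from -0.45 to -0.15 (mean -0.27, SD 0.0843), while the 9 usable spots of liver array 1 ranged from 0.0010 to 0.039 (mean 0.02, SD 0.0127). For Jun in liver, 9 spots ranged from 0.18 to 0.21 on array 1 and 9 from -0.19 to -0.05 on array 2. The spots of the liver arrays did not overlap for either gene. In spleen the Jun spots did overlap, from -0.22 to -0.13 on array 1 (9 spots) and from -0.15 to -0.07 on array 2 (10 spots), all below 0. Spots of an array share its hybridization and dye and are not replicates of the diet.

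**Figure D3:**
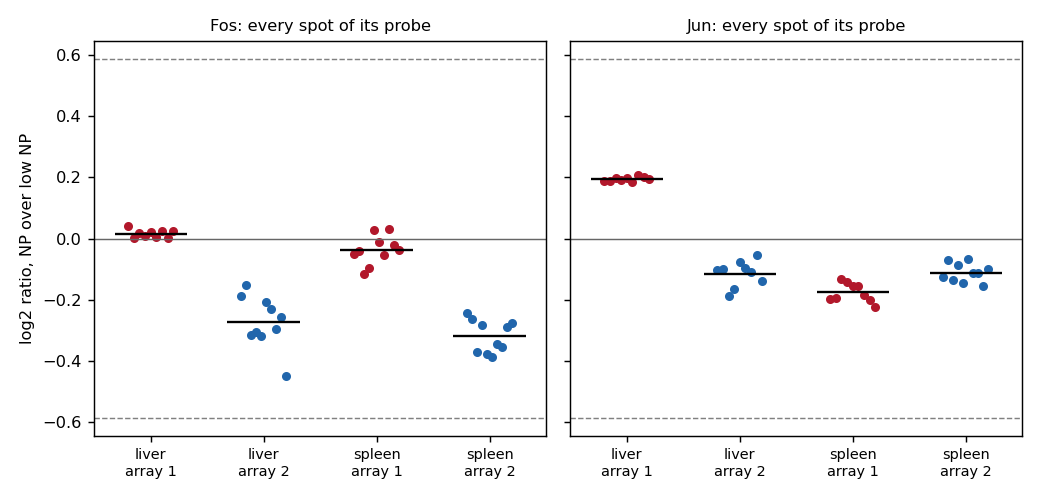
Log2 ratio of NP over low NP (y axis) at every usable spot of the Fos probe (left) and the Jun probe (right) on each array (x axis), with the mean as a black line and dashed lines at 1.5-fold. Spots of 1 array lie close together, and for Fos array 2, with NP in Cy3, lies below array 1, with NP in Cy5, in both tissues.

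Egr1, a growth factor-induced zinc finger factor, had log2 ratios of 0.41 and -0.03 in liver, with the highest mean of the members at 0.19 ± 0.22. In spleen its arrays read 0.18 and -0.21, a mean of -0.013 ± 0.19. In both tissues the NP channel was the higher one on array 1 and the lower one on array 2.

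Ier2, a small nuclear protein, had means of 0.04 ± 0.09 in liver and -0.03 ± 0.11 in spleen. Its other probe gave 0.017 in liver and -0.07 in spleen. Ier3, a regulator of cell survival and of ERK signalling, read -0.03 and -0.17 in liver (mean -0.10 ± 0.07) and -0.21 and 0.14 in spleen (mean -0.04 ± 0.17). Neither gene reached 1.5-fold on any array.

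Dusp1, the nuclear phosphatase that switches off p38 and JNK, had the widest gap between liver arrays of the 10 probes used. It read 0.05 on array 1 and -0.54 on array 2, a mean of -0.24 ± 0.29. In spleen the arrays read 0.17 and -0.18, which cancel to -0.0050 ± 0.17.

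The signs of these small ratios depended in part on the processing. Across the 8 settings, Jun and Egr1 were above 0 and Ier3, Ier5 and Dusp1 below 0 in liver in all of them, and the other 5 members changed sign. In spleen Fosb was above 0 and Fos, Jun and Junb below 0 in all 8, and the other 6 changed sign. The filter settings left each member's ratio at its main value, as did averaging over probes except for Junb and Ier2. The deposited value table nearly repeated the processed signals, as for Egr1 in liver with 0.33 in both. The 8 settings are therefore not 8 separate checks of a sign. A mean of the same sign in all settings can still rest on 1 array. The arrays had opposite signs for Jun, Egr1 and Dusp1 in liver and for Fosb in spleen.

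Between tissues, Ier5 was the only member called at 2-fold in both dyes, although the scanner software's processed signals added Ier3 between the NP pools (-1.38) and Dusp1 between the low-NP pools (1.43). Between the NP pools 13.6% of 19061 genes were called higher in liver and 14.7% higher in spleen, and between the low-NP pools 8.5% and 9.31%. Junb was lower in liver than in spleen, by -0.90 ± 0.03 between the NP pools and -0.74 ± 0.07 between the low-NP pools on the log2 scale. Ier2 was lower in liver by a smaller margin, at -0.42 ± 0.02 and -0.49 ± 0.01. These signs were the same in both dyes, but both genes turned with the processed signals. Junb then stood at 0.14 and 0.37 and Ier2 at 0.03 and 0.10 between the NP and the low-NP pools, so the tissue order of these genes depends on the normalization.

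Dusp1 was higher in liver, at 0.76 ± 0.05 between the NP pools and 1.00 ± 0.07 between the low-NP pools, where 1 of the dyes passed 2-fold. Jun was higher in liver as well, at 0.64 ± 0.18 and 0.46 ± 0.01. The levels of Dusp1 were 11.61 and 11.36 in NP liver, 11.56 and 11.90 in low-NP liver, 10.80 and 10.65 in NP spleen, and 10.63 and 10.82 in low-NP spleen, so the tissues did not overlap. Egr1 gave 0.11 ± 0.01 between the NP pools and -0.09 ± 0.03 between the low-NP pools, and each value took the other sign under another normalization (-0.15 with median centring and 0.10 with processed signals).

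Fos, Fosb, Ier3 and Atf3, the 4 members closest to background, gave tissue differences between -0.17 and 0.28, with opposite signs in the 2 dyes each time. For Fos the difference between the NP pools was 0.20 ± 0.40, and -1.09 from processed signals. Their tissue order was not resolved, and it compares spleen array 1 with its raised negative controls against a liver array.

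Genes around the pathway were described through 5 lists. Of 18 measured relatives in the AP-1 and ATF family 1 was called lower in liver, Batf (-1.18 ± 0.52), an AP-1 factor of lymphocytes, and 1 in spleen, Atf5 (-1.64 ± 0.07), a stress-response factor abundant in liver. None was called higher, and the list medians were -0.05 in liver and -0.04 in spleen. Of 19 measured regulators upstream (SRF, its partners, MAP kinases and their kinases) 1 was called lower in liver, Mkl1 (-0.87 ± 0.12), a cofactor of SRF, and none in spleen. Against the 3.63% and 6.33% of all genes called lower, these lists held 1 or no call each.

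Of the other MAP kinase phosphatases, 8 were measured in liver and 9 in spleen. Dusp2, a phosphatase of activated lymphocytes, was called lower in liver, at 9.29 in NP liver and 12.5 in low-NP liver, a log2 ratio of -3.24 ± 0.66. None was called in spleen, where Dusp2 had 0.18 ± 0.06. Of a list of the Egr family, its Nab corepressors and Wt1, 5 genes were measured and none was called in either tissue. The liver median of that list, -0.52, was the value of Wt1 itself, with -0.12 and -0.91 on the arrays. Wt1 was well above background in NP liver on 1 array. In liver Egr2 had -1.14 ± 0.74 and Egr3 -0.60 ± 0.45, with Nab1 at 0.41 ± 0.28 and Nab2 at 0.23 ± 0.16. Egr3 was not well above background in NP liver.

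The largest list, other immediate early genes, had 37 measured members in each tissue. In liver 7 of the 37 were called lower and none higher, with a median of -0.13. Of all measured liver genes 3.63% were called lower. They included Rgs2, a brake on G protein signalling (-1.56 ± 0.30), the antiproliferative genes Btg1 (-1.33 ± 0.10) and Btg2 (-0.98 ± 0.25), and the nuclear receptor Nr4a1 (-1.30 ± 0.40). The others were Gadd45b, a stress sensor (-1.39 ± 0.67), Ctgf, a matrix protein (-0.78 ± 0.11), and Tnfaip3, an inhibitor of NF-kappaB (-1.11 ± 0.52), which lay outside the rule for named genes and was added after its value was seen. All 7 were among the 16 of the list that were at least 2-fold higher in NP spleen than in NP liver, as Ier5 was. Of all genes of that kind, 21.9% were called lower in NP liver.

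In spleen 3 of the 37 were called lower: Errfi1, a feedback inhibitor of EGF receptor signalling (-2.96 ± 0.06), Phlda1 (-2.36 ± 0.19) and the kinase Plk3 (-0.87 ± 0.22). All 3 were among the 6 of the list with a level 2-fold or more above NP spleen in NP liver. None of the 10 members was of that kind, and none was called in spleen. Of all genes whose NP liver level exceeded the NP spleen level 2-fold or more, 1113 of 2565 (43.4%) were called lower in NP spleen, against 62 of the 16002 others (0.387%). The hepatocyte markers named above moved the same way in spleen, and their part in these 3 calls was not tested.

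**Figure D4:**
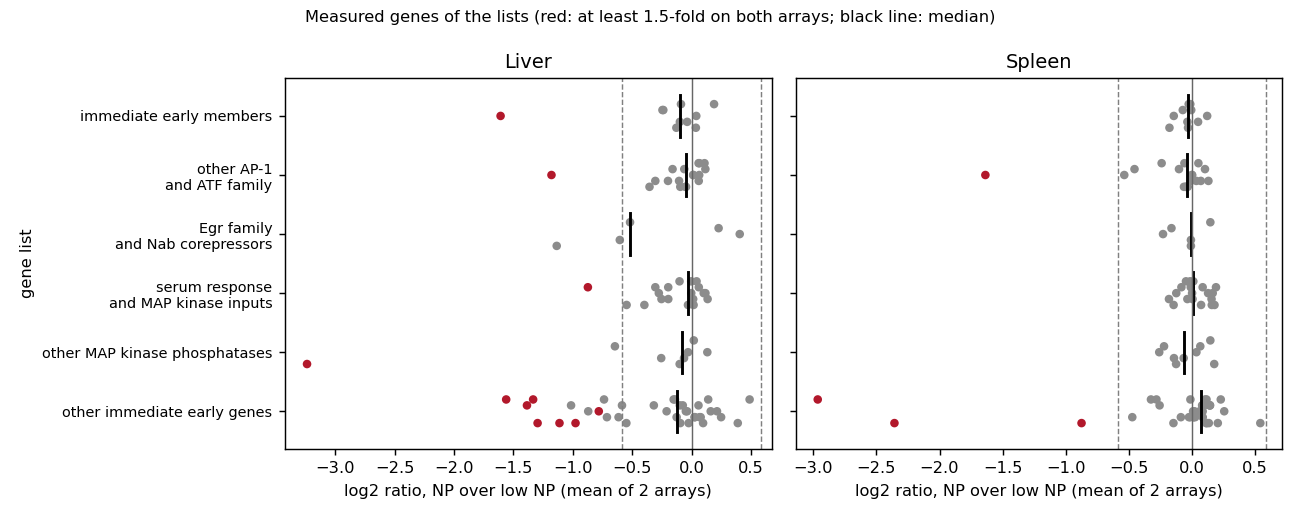
Log2 ratio of NP over low NP, mean of 2 arrays (x axis), for each measured gene of the member list and the 5 related lists (y axis) in liver (left) and spleen (right), with called genes in red, other genes in grey, the median as a black line and dashed lines at 1.5-fold. The red points all lie on the lower side, 7 of them in liver and 3 in spleen among the other immediate early genes.

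**Figure D5:**
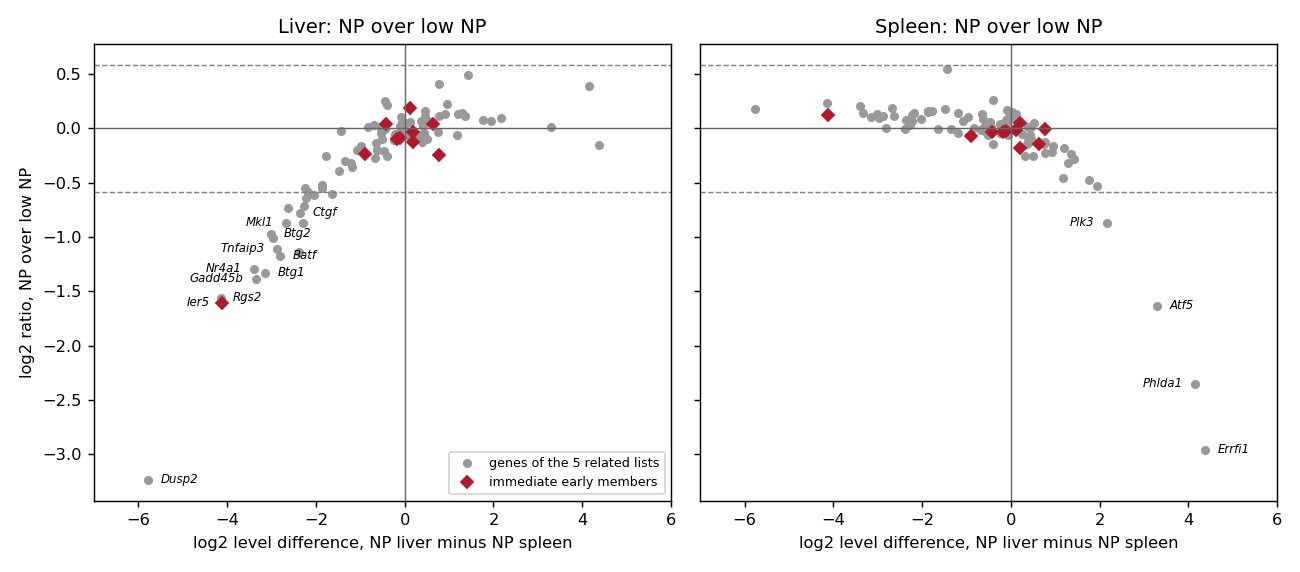
Log2 ratio of NP over low NP (y axis) in liver (left) and spleen (right) against the log2 level difference of NP liver minus NP spleen (x axis) for the members (red diamonds) and the genes of the 5 related lists (grey), with called genes named and dashed lines at 1.5-fold. Called genes lie at the spleen-higher end in liver and at the liver-higher end in spleen; both axes use the NP channels, so the slope is not independent evidence.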

How the data were processed

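Livers and spleens on 2 diets were profiled as 4 RNA pools on 4 arrays of 1 slide, so no comparison between slides can be made. The deposited scanner files give spot intensity as mean foreground and local median background per dye, with flags, per the file headers, which like the submitters' processing notes name Agilent Feature Extraction 9.5.3.1. Per the file headers they further hold the software's processed intensity and the log10 of Cy5 over Cy3. How the authors made the log10 values of the deposited series table is not stated. The columns of this table correlated with the scanners' log10 value at -0.992, 0.991, -0.993 and 0.998, so every column runs as low NP over NP, and their medians of 0.03, -0.07, -0.01 and -0.04 show that they are not centred.

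Each array had 45018 spots, of which 1639 were controls and 109 to 180 were outliers left out. In limma 3.58.1 (R 4.3.3) the background was corrected with normexp (offset 50) and ratios were normalized by loess within arrays, with Aquantile between arrays for levels. Signs were set so that NP is on top, and spots of a probe were averaged, which left 41174 probes. Tissues were compared between channels of the same dye, with a call at 2-fold in both dyes. Tables were made with Python 3.11.15, numpy 2.4.6 and pandas 2.3.3, and figures with matplotlib 3.10.9. The call rule was tried on simulated data with planted changes well past 1.5-fold and random noise without dye error. That run cannot show how the rule fares with smaller changes or with dye error. The number of arrays, 2 per tissue, limits the precision.

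The members, the related lists and the alternatives were chosen with earlier results of these data known. Named genes are the members, up to 6 called genes per list, ranked by the array with the smaller absolute ratio, the 2 genes nearest to a called member, and Apoa1, Cd79b, Cd3d and Alb as tissue checks.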

Additional observations from a re-analysis of the deposited data

Results flagged for a closer look

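Ier5 is singled out because its arrays lay on opposite sides of 0 in the 2 tissues. Its log2 ratio of NP over low NP was -1.44 and -1.78 on the liver arrays and 0.03 and 0.22 on the spleen arrays, so the liver mean minus the spleen mean was -1.73. That difference was not tested, since the arrays of a tissue were counted as 1 replicate. The spleen value is small, and with median centring in place of loess it was -0.18, on the same side of 0 as liver.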

How the results depend on the processing

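Ier5 was called lower in liver, and no other member was called in either tissue, under every alternative run, including a 2-fold threshold and each array alone, where Ier5 read -1.78 and -1.44. Counts over all genes moved more. Genes called higher in liver numbered 12, but 303 with the scanner software's processed signals, 312 with the deposited value table, 6 at 2-fold and 76 to 345 with 1 array. Genes called lower in liver numbered 621, but 1333 without background correction, 1755 with processed signals, 324 with median centring, 1762 with the value table, 296 at 2-fold and 702 to 1924 with 1 array. The share of lower calls in liver was 98.1%, and 85.3% with processed signals, 85.0% with the value table and 67.0% with array 1 alone. Genes called higher in spleen numbered 8, but 48 with processed signals or the value table, 3 with median centring, 1 at 2-fold and 50 to 130 with 1 array. Genes called lower in spleen numbered 1175, but 775 at 2-fold and 1248 to 1680 with 1 array. The members' median in liver, -0.09, was 0.020 with processed signals, 0.027 with the value table and -0.15 to -0.01 with 1 array. Their median in spleen, -0.03, was 0.12 with processed signals or the value table, -0.21 with median centring and -0.11 to -0.021 with 1 array. These settings shift all genes too, by 0.11 in liver and 0.12 in spleen with processed signals and by -0.13 in spleen with median centring; beyond this the cause was not tested. The members' tissue differences were the least stable: over 3 alternatives, 18 of 30 values between the NP pools and 20 of 30 between the low-NP pools moved by more than the spread between dyes. With processed signals Fos (-1.09 and -1.22), Fosb (-1.12 and -1.43) and Atf3 (-0.90 and -0.78) lay well below 0, Junb (0.14 and 0.37) and Ier2 (0.03 and 0.10) turned sign, and Ier5 (-3.35 and -1.52) kept its call. Ier3 in the NP pools (-1.38) then passed 2-fold in both dyes, as did Dusp1 in the low-NP pools (1.43, and 1.06 with quantile normalization). No paired analysis was possible because the pool numbers follow the dye orientation, and no result comes from a test. This concerns pairing by pool number between arrays, as each diet ratio already sets NP against low NP within an array.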
